A study of Mus musculus with 56 samples.

Results

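Cirbp, the gene of cold-inducible RNA-binding protein, and Rbm3, the gene of RNA-binding motif protein 3, were followed around the clock in mouse heart. The members were taken by gene symbol and are 2 of the 22864 genes listed. Both had a mean of at least 1 TPM (reads per base of the gene's merged exons, scaled to the same sum in each library) and so belonged to the 13891 genes tested. Hearts came from adult female C57BL/6J mice, an inbred strain, aged 9 weeks. Light and darkness alternated every 12 h, and the mice ate normal chow freely before a feeding regimen was assigned. Over the next 7 days food was offered by day only (daytime-restricted feeding, DRF) or by night only (nighttime-restricted feeding, NRF, the control and close to the habit of a nocturnal animal). Neither regimen changed the light cycle, no allele or drug was used, and no group with free access to food is analysed here. PolyA RNA was sequenced every 4 h between ZT0 and ZT24, where zeitgeber time (ZT) counts hours from lights on, which gave 7 times with 4 replicates in each of the 14 combinations of regimen and time, 56 libraries in all. The labels do not say that each replicate is a separate mouse, so p-values measure the spread between these libraries.

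Both proteins carry a single RNA recognition motif followed by a glycine-rich tail. Their transcripts and proteins are known to rise when cells are mildly cooled and to fall when cells are warmed, the opposite of the heat shock chaperones. Body temperature of mice swings over the day, and in several tissues the 2 transcripts are known to oscillate with it. CIRBP binds the transcripts of several genes, the circadian gene Clock among them, and RBM3 is known for its part in the protection of synapses under cooling. Body temperature, proteins and splicing were not analysed here, so all values below are transcript levels of the whole gene.

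Cirbp (ENSMUSG00000045193) lies on the plus strand at chr10:80165985-80172786 and Rbm3 (ENSMUSG00000031167) on the minus strand at chrX:8138975-8145880, in build GRCm38 with the GENCODE M21 annotation. The first 243 coding bases of a protein-coding Cirbp transcript (chr10:80169814-80170234, spread over 3 coding exons) and of an Rbm3 transcript (chrX:8143915-8145057, also 3 coding exons) are shown because the members are paralogs and their reads must be told apart. The window starts at the start codon, and capitals mark the bases at which the paralogs differ when set side by side without gaps.
Cirbp: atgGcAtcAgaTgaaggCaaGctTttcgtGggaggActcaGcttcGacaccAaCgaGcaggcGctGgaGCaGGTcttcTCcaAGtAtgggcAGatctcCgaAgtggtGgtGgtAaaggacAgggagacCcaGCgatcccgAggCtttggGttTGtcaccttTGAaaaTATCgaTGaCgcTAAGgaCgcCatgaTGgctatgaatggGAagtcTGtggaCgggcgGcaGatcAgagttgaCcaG
Rbm3: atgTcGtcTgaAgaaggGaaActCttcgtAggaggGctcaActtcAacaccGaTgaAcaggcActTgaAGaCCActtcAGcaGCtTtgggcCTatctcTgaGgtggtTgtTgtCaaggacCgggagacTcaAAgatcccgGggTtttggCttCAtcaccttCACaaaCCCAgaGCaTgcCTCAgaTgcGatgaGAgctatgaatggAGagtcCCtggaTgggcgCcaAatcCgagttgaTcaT
In this window 173 of 243 bases (71.2%) were identical. Over the whole coding sequences, of 516 bases in Cirbp and 462 in Rbm3, 330 of 450 aligned bases were identical (73.3%). The longest stretch shared by any annotated transcript of Cirbp and any of Rbm3 was 11 bases, against reads of 150 bases. The processed pseudogene Rbm3-ps is a closer copy, with 459 of 462 aligned bases identical to Rbm3 (99.4%) and a longest shared stretch of 197 bases. Rbm3-ps was listed with 16 to 72 reads a library, against 1128 to 3335 for Rbm3. How reads that match both were assigned, or whether they were dropped, is not given in the sources used here. The listed reads of Rbm3-ps thus do not bound the uncertainty of Rbm3. The antisense gene Rbm3os overlaps the 5′ end of Rbm3 and was listed with 1 to 20 reads a library, and the use of strand in counting is not given in the sources used here, so reads in the overlap cannot be told apart. Both members also have annotated retained-intron and nonsense-mediated-decay transcripts, which the gene totals do not separate.

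Upstream sequence is shown for Cirbp because an octamer in it, TCCCCGCC, has been described as a mild-cold responsive element. RefSeq (GRCm38.p6) places a start site of Cirbp at base 80167839 of chromosome 10, and the 189 bases of chr10:80167589-80167777 on the plus strand end where the next annotated exon begins. Capitals mark the octamer, 247 bases before that start site.
Cirbp upstream: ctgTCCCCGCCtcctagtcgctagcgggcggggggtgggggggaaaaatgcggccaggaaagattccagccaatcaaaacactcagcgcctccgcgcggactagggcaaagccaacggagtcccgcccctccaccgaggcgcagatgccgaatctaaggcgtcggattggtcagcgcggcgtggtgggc
Both strands of the 250 bases before each RefSeq start site were searched. TCCCCGCC was present in 1525 of 32851 such windows (4.64%). CCAAT, held by 33.8% of windows, occurred in the window of Cirbp once on each strand, 181 and 85 bases before the start site. Neither the E-box CACGTG (6.02% of windows) nor the heat shock core GAANNTTC or TTCNNGAA (12.8%) was found in the 2 Cirbp windows of the table. A match of letters is a description of this window and not a site. Rbm3 was not matched in the table.

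Depth was alike in the regimens, with 29.2 to 52.8 (in units of 1e6) recovered reads a library, and Cirbp rested on 697 to 3018 reads and Rbm3 on 1128 to 3335. The heart label held: 6 of 6 cardiomyocyte markers were listed, with summed levels of 13548 to 17156 TPM under NRF and 12731 to 17605 TPM under DRF. Over 3198 genes that varied between groups, 53 of 56 libraries were most like the mean of the other libraries of their own group. The library labelled DRF ZT4 replicate 1 was instead most like NRF ZT8 (r = 0.74 against 0.02 with its own group), and the library labelled NRF ZT8 replicate 1 was most like DRF ZT4 (0.70 against 0.03). NRF ZT4 replicate 1 was nearly tied between NRF ZT0 and its own group (0.610 against 0.608). The first 2 were kept under their labels, and results at ZT4, ZT8 and over the day are given below also without them. Mitochondrial transcripts took 20.5% ± 1.57 of reads under NRF and 21.8% ± 1.47 under DRF (SD, n = 28 each).

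Cirbp under NRF was high in the second part of the light phase and low in the dark. At ZT0 its levels in replicates 1 to 4 were 25.4, 37.1, 29.6 and 35.4 TPM, and at ZT4 they were 31.6, 62.4, 34.2 and 52.6 TPM. The ZT4 libraries spanned the largest range of any Cirbp group under NRF. At ZT8 the levels were 40.0, 57.9, 56.3 and 62.8 TPM, the lowest being the doubtful library, and at ZT12 they were 54.4, 56.4, 64.5 and 43.2 TPM. By ZT16 every library was below every library of ZT8 and ZT12, with 22.0, 23.9, 26.6 and 27.8 TPM. The lowest group of all 14 was ZT20, with 18.5, 22.1, 21.4 and 16.8 TPM, and ZT24 followed with 24.6, 20.6, 25.3 and 22.4 TPM. Between the group means the span was 2.77-fold, from 54.6 ± 8.78 TPM at ZT12 to 19.7 ± 2.48 TPM at ZT20 (SD, n = 4).

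Under DRF the highest levels of Cirbp stood at the start of the light phase. At ZT0 the libraries had 81.1, 66.0, 63.1 and 55.6 TPM, all above the 4 NRF libraries of that time. ZT4 gave 57.9, 49.7, 41.0 and 34.9 TPM, the highest value belonging to the doubtful library, and ZT8 gave 49.9, 40.9, 45.5 and 42.6 TPM. At the end of the light phase the order of the regimens was reversed: ZT12 held 35.8, 31.4, 31.5 and 25.9 TPM, all below the NRF libraries of that time. The trough was at ZT16, with 36.7, 22.2, 17.3 and 22.8 TPM. The later libraries of the dark phase held 29.4, 27.3, 31.6 and 26.0 TPM at ZT20 and 62.5, 35.5, 45.3 and 41.6 TPM at ZT24, a group whose range overlapped that of ZT0. The group means spanned 2.68-fold, from 66.4 ± 10.7 TPM at ZT0 to 24.8 ± 8.35 TPM at ZT16.

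Rbm3 had a smaller swing with a similar outline. Under NRF its levels were 18.9, 23.4, 17.5 and 21.8 TPM at ZT0 and 22.0, 37.6, 20.98 and 40.1 TPM at ZT4. Replicates 2 and 4 of NRF ZT4 were thus the high libraries for both members. At ZT8 Rbm3 had 22.3, 34.97, 34.3 and 39.3 TPM, again with the doubtful library lowest, and at ZT12 it had 35.5, 42.0, 39.5 and 29.6 TPM. In the dark the level was flat at 19.4, 23.96, 19.1 and 20.7 TPM (ZT16), 18.7, 24.7, 16.7 and 16.5 TPM (ZT20) and 19.5, 19.3, 21.8 and 20.7 TPM (ZT24). No dark-phase library from ZT16 on reached the lowest library of ZT12.

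Under DRF Rbm3 began high, at 37.6, 32.8, 37.2 and 30.7 TPM at ZT0, above all NRF libraries of that time. ZT4 gave 31.2, 28.5, 21.2 and 17.6 TPM, with the doubtful library highest. From ZT8 to ZT12 Rbm3 stayed up, at 34.4, 30.1, 29.3 and 27.8 TPM and then 29.5, 34.5, 28.9 and 29.7 TPM, while every Cirbp library of ZT12 lay below those of ZT8. The low values came at ZT16 (24.6, 16.7, 16.4 and 18.6 TPM) and ZT20 (18.3, 15.2, 18.7 and 19.1 TPM), and ZT24 had 24.2, 20.8, 23.99 and 27.8 TPM. The group means spanned 1.91-fold under NRF, from 36.7 ± 5.40 TPM at ZT12 to 19.2 ± 3.84 TPM at ZT20. Under DRF they spanned 1.93-fold, from 34.6 ± 3.38 TPM at ZT0 to 17.9 ± 1.78 TPM at ZT20.

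**Figure D1:**
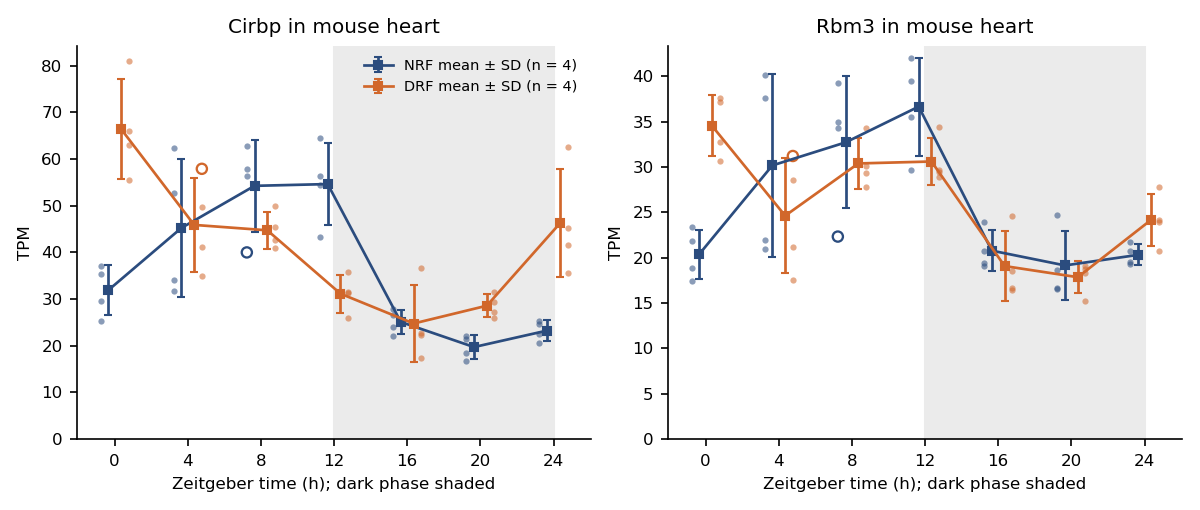
Levels of Cirbp (left) and Rbm3 (right) in TPM against zeitgeber time in hours under NRF (blue) and DRF (orange). Squares with bars are means ± SD of 4 libraries, small points are libraries and open circles are the 2 doubtful libraries. The DRF curve of Cirbp starts at 66.4 TPM, where NRF is at 31.9, and crosses below NRF before ZT12. The curves of Rbm3 part mainly at ZT0 (34.6 against 20.4 TPM) and less at ZT24 (24.2 against 20.3 TPM).

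Ordered by mean level, the groups of Cirbp ran DRF ZT0 (66.4 TPM), NRF ZT12 (54.6), NRF ZT8 (54.2), DRF ZT24 (46.2), DRF ZT4 (45.9), NRF ZT4 (45.2), DRF ZT8 (44.7), NRF ZT0 (31.9), DRF ZT12 (31.1), DRF ZT20 (28.6), NRF ZT16 (25.1), DRF ZT16 (24.8), NRF ZT24 (23.2) and NRF ZT20 (19.7). In 4 of the 13 steps between neighbours the difference was larger than their pooled SD: below DRF ZT0, below DRF ZT8, below DRF ZT20 and below NRF ZT24. The step from DRF ZT8 to NRF ZT0, 12.8 TPM, was the only one at which the ranges of neighbours did not overlap, and it split the groups of Cirbp into 7 high and 7 low. For Rbm3 the order was NRF ZT12 (36.7 TPM), DRF ZT0 (34.6), NRF ZT8 (32.7), DRF ZT12 (30.6), DRF ZT8 (30.4), NRF ZT4 (30.2), DRF ZT4 (24.6), DRF ZT24 (24.2), NRF ZT16 (20.8), NRF ZT0 (20.4), NRF ZT24 (20.3), NRF ZT20 (19.2), DRF ZT16 (19.1) and DRF ZT20 (17.9). Here 1 of 13 steps exceeded the pooled SD, that below DRF ZT24, and in 0 steps were the ranges apart. From highest to lowest group the fold was 3.37 for Cirbp and 2.05 for Rbm3.

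Both members oscillated under both regimens, as 17.6% of tested genes did. Rhythm was tested with a 24-h cosine fit on the log2(TPM + 1) scale, by a limma F test adjusted over all tested genes. Under NRF, where 37.2% of tested genes passed at an adjusted p under 0.05, Cirbp had an amplitude (from the fitted mean to the peak) of 0.75 ± 0.09 (SE, adjusted p = 9.24e-08) and Rbm3 one of 0.47 ± 0.08 (3.64e-05). Under DRF, where 32.4% passed, the amplitude was 0.57 ± 0.09 for Cirbp (7.33e-05) and 0.31 ± 0.09 for Rbm3 (0.0252). In fold terms the fitted peak stood over the trough 2.83 times (NRF) and 2.21 times (DRF) for Cirbp, and 1.91 and 1.54 times for Rbm3. The amplitude of Cirbp was above that of 99.5% of tested genes under NRF and 99.3% under DRF, and that of Rbm3 above 97.9% and 95.1%. The adjusted p of Rbm3 under DRF rose to 0.122, 0.176 and 0.061 without replicate 1, 2 or 3, to 0.086, 0.174 and 0.289 without ZT8, ZT16 or ZT20, and to 0.057 with the mitochondrial share as a covariate, so this rhythm is near the threshold. Without the 2 doubtful libraries both rhythms of both members passed, with amplitudes of 0.80 and 0.57 for Cirbp and 0.53 and 0.31 for Rbm3 under NRF and DRF.

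Inverted feeding moved the peak of Cirbp earlier. The fitted peak was at ZT8.21 ± 0.43 h under NRF and at ZT3.33 ± 0.57 h under DRF (SE), a phase shift of -4.87 h with a 95% interval of -6.31 to -3.44 h. For Rbm3 the peaks were at ZT8.82 ± 0.66 h and ZT6.29 ± 0.94 h, a shift of -2.53 h with an interval of -4.85 to -0.22 h. Among the 2444 genes with a rhythm under both regimens the median absolute shift was 3.81 h, and 40.1% of them shifted at least as far as Cirbp and 64.0% at least as far as Rbm3. The amplitudes under DRF were lower by an amount that the fit could not separate from 0. The difference was -0.18 for Cirbp (95% interval -0.43 to 0.07) and -0.16 for Rbm3 (-0.40 to 0.08). With the doubtful libraries left out the shift was -4.87 h for Cirbp and -2.42 h for Rbm3, and the amplitude differences were -0.24 and -0.22. The interval for Rbm3 no longer excluded 0 without replicate 1, 2 or 3 or without ZT0, ZT16, ZT20 or ZT24, and the shift was -0.83 h without ZT0.

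The rhythm of Cirbp differed between the regimens whichever clock was used to line them up. At matched zeitgeber time, where 27.6% of tested genes differed, the limma F test of the interaction gave an adjusted p of 1.28e-06. With the DRF curve moved by 12 h, so that times were matched to the start of the feeding phase, 41.3% of genes differed and Cirbp had an adjusted p of 6.60e-09. So the rhythm of Cirbp differed at both alignments, a pattern of rhythms under both regimens that 7.42% of tested genes shared. Rbm3 also differed at matched feeding time (adjusted p = 5.06e-06) but was not called at matched zeitgeber time (0.0808), a pattern shared by 7.41%. That call of Rbm3 turned without the doubtful libraries (adjusted p = 0.0335) and without ZT4 (0.00946), with values as deposited (0.0459) and with a second harmonic (0.0479). The mean over the day did not pass for either member, in a test that 25.9% of genes passed, at 0.09 ± 0.07 for Cirbp (log2, DRF minus NRF, SE, adjusted p = 0.335) and -0.02 ± 0.07 for Rbm3 (0.892). When the doubtful libraries were left out the mean differed by 0.06 (0.560) and -0.05 (0.577), and the adjusted p of the rhythm difference was 3.79e-07 at matched zeitgeber time and 4.97e-09 at matched feeding time for Cirbp and 1.11e-06 at matched feeding time for Rbm3.

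At single times Cirbp was higher under DRF around lights on and lower at lights off. At ZT0 the difference was 1.04 ± 0.18 (log2, SE), a 2.05-fold excess under DRF (limma contrast, adjusted p = 0.000123, passed by 11.3% of genes). At ZT12 it was -0.79 ± 0.18, with NRF 1.72-fold above DRF (adjusted p = 0.00543, 7.63% of genes). At ZT24, the next lights on, DRF was again higher, by 0.94 ± 0.18 or 1.91-fold (0.000811, 8.83%). The difference at ZT20, 0.52 ± 0.18 (adjusted p = 0.0468, 14.8% of genes), lay at the edge of the threshold and was lost when any of replicates 1 to 4 was left out (0.0676 to 0.160). At ZT4, ZT8 and ZT16 the differences were 0.05, -0.26 and -0.06, each ± 0.18 (adjusted p = 0.951, 0.525 and 0.861), where 0.446%, 0.353% and 6.84% of genes passed. Without the doubtful libraries Cirbp differed by -0.07 at ZT4 (adjusted p = 0.901) and by -0.39 at ZT8 (0.203). The call at ZT12 was lost without replicate 3 (0.167).

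Rbm3 was higher under DRF at ZT0, by 0.74 ± 0.17 or 1.67-fold (limma contrast, adjusted p = 0.00224). The call at ZT0 was lost without replicate 3 (0.0692). At ZT24, the same clock time a day later, the difference was 0.23 ± 0.17 and did not pass (adjusted p = 0.399). At ZT4, ZT8, ZT12, ZT16 and ZT20 the differences lay between -0.26 and -0.08, each ± 0.17, and did not pass (adjusted p from 0.387 to 0.870). Leaving out the doubtful libraries gave -0.38 at ZT4 (0.202) and -0.25 at ZT8 (0.363).

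When times were matched to the start of the feeding phase, most contrasts of both members differed. These contrasts use the same 56 libraries as those at matched zeitgeber time and are not independent of them. The contrast of DRF ZT0 with NRF ZT12, the start of feeding in each regimen, was 0.28 ± 0.18 for Cirbp (limma, adjusted p = 0.413) and -0.08 ± 0.17 for Rbm3 (0.846), where 6.11% of genes passed. DRF ZT24, of the same phase as DRF ZT0, was not contrasted with NRF ZT12. Its means were below those of NRF ZT12 for Cirbp (46.2 against 54.6 TPM) and Rbm3 (24.2 against 36.7 TPM). At 4 h after the start (DRF ZT4 against NRF ZT16, 6.37% of genes) Cirbp was higher under DRF by 0.83 ± 0.18 (adjusted p = 0.00228), with 0.71 without the doubtful library (0.0142), and Rbm3 differed by 0.21 ± 0.17 (0.566), or 0.08 without that library (0.843). The call of Cirbp here was lost without replicate 2 (0.0602). At 8 h (DRF ZT8 against NRF ZT20, 5.54% of genes) both were higher under DRF, Cirbp by 1.15 ± 0.18, the largest of the 6 differences for it (7.58e-05), and Rbm3 by 0.65 ± 0.17 (0.0124).

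At 12 h, when the feeding phase ended (DRF ZT12 against NRF ZT24, 5.18% of genes), Rbm3 was higher under DRF by 0.57 ± 0.17 (limma, adjusted p = 0.0339), and Cirbp differed by 0.40 ± 0.18 (0.222). NRF ZT0, of the same phase as NRF ZT24, was not contrasted with DRF ZT12. DRF ZT12 and NRF ZT0 had means of 31.1 and 31.9 TPM for Cirbp and 30.6 and 20.4 TPM for Rbm3. In the fasting phase the sign turned for both members. At 16 h (DRF ZT16 against NRF ZT4, 22.7% of genes) Cirbp was lower under DRF by 0.84 on the log2 scale, or 1.79-fold (-0.84 ± 0.18, adjusted p = 0.000772), and Rbm3 by 1.51-fold (-0.59 ± 0.17, 0.00759). At 20 h (DRF ZT20 against NRF ZT8, 24.1% of genes) the differences were -0.89 ± 0.18 for Cirbp (0.00049) and -0.81 ± 0.17 for Rbm3 (0.000437), and -1.02 and -0.98 without the doubtful library. Each library can also be scaled by the median of its ratios to the mean of all libraries. Those factors differed by -0.12 and -0.13 (log2, DRF minus NRF) in these last 2 contrasts. The differences were then -0.72 and -0.76 for Cirbp and -0.48 and -0.69 for Rbm3, all past the threshold. For Rbm3 the call at 8 h was lost without DRF ZT8 replicate 1 or NRF ZT20 replicate 3 (0.0535 and 0.0521), and that at 16 h without NRF ZT4 replicate 2 or 4 (0.0544 and 0.0849). The call at 12 h was lost without any of replicates 1, 2 or 3 of DRF ZT12 or 1, 2 or 4 of NRF ZT24 (0.0539 to 0.127). With a replicate number left out in every group the adjusted p rose to at most 0.147, 0.217 and 0.148, and that of Cirbp at 16 h to 0.0576 without replicate 2.

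**Figure D2:**
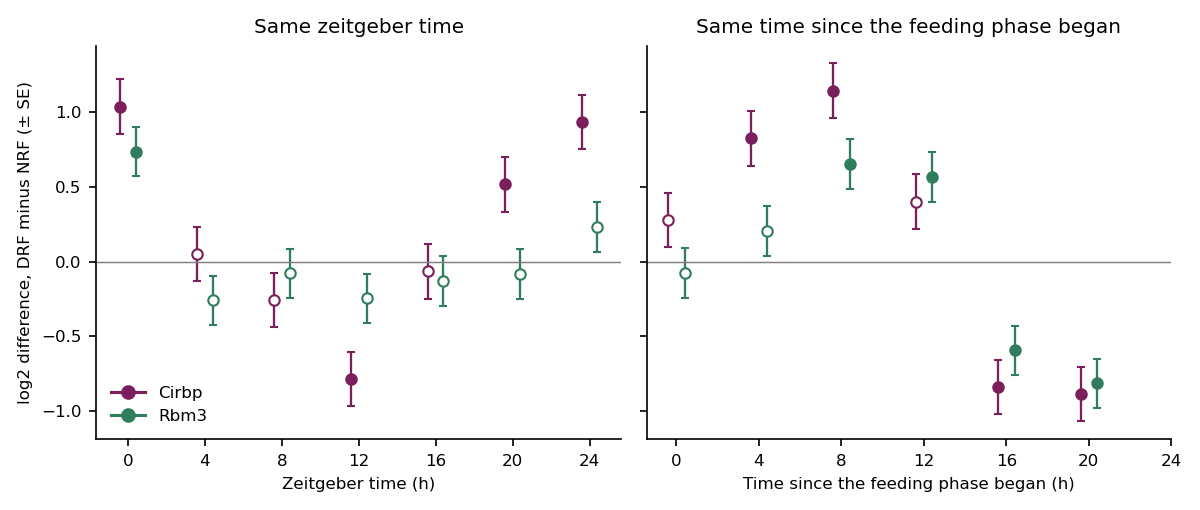
Differences between the regimens (log2, DRF minus NRF, ± SE) for Cirbp (purple) and Rbm3 (green) at the same zeitgeber time (left) and at the same time since the feeding phase began (right), in hours. Filled points passed an adjusted p of 0.05 in the limma contrast. At matched zeitgeber time Cirbp goes from 1.04 at ZT0 to -0.79 at ZT12. At matched feeding time both members are at or above -0.08 up to 12 h and at or below -0.59 after it. The points at 0 h and 12 h of feeding time use DRF ZT0 and NRF ZT24, and not DRF ZT24 and NRF ZT0.

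ZT0 and ZT24 fall at the same clock time, and the 24-h fit treats them as the same phase. Under DRF both members were lower at ZT24 than at ZT0, Cirbp by -0.53 ± 0.18 (log2, limma, adjusted p = 0.204) and Rbm3 by -0.50 ± 0.17 (0.191), in a comparison that 0.418% of genes passed. Neither passed. Under NRF, where 0.0576% of genes passed, the differences were -0.43 ± 0.18 for Cirbp (0.497) and 0.00 ± 0.17 for Rbm3 (0.997). 

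Within groups the 2 members deviated together. The deviations of the 56 libraries from their group means, on the log2 scale, had Pearson's r = 0.771 and Spearman's rho = 0.749 between Cirbp and Rbm3 (permutation within groups, 2-sided, p = 1e-05 for each, the smallest that 100000 permutations can give). Without the 2 libraries farthest from the median of Cirbp r was 0.725 (permutation p = 4e-05), and without the doubtful libraries it was 0.731 (4e-05). The correlation was 0.838 in the 28 NRF libraries and 0.707 in the 28 DRF libraries. This was the only relation of its family that was tested. Across the 14 group means r between the members was 0.84, which as a description made Rbm3 the 250th most similar of the other tested genes to Cirbp.

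Cirbp relative to Rbm3 changed over the day, in a test chosen after the data had been seen. The log2 ratio within each library had a peak at ZT7.23 and an amplitude of 0.30 under NRF, and a peak at ZT1.21 and an amplitude of 0.41 under DRF. Its rhythm differed between the regimens (permutation of regimen within each time, 2-sided, adjusted over 3 tests, p = 1.5e-05, with or without the doubtful libraries). At ZT12 the ratio was 0.56 ± 0.12 under NRF and 0.02 ± 0.22 under DRF (SD, n = 4). At ZT20 it was 0.05 ± 0.21 and 0.65 ± 0.16, and at ZT24 0.18 ± 0.11 and 0.88 ± 0.33. On this scale the members had nearly equal levels at DRF ZT12 and NRF ZT20, and Cirbp was above Rbm3 at DRF ZT0 (0.92 ± 0.15). The scale divides reads by the merged annotated exons of each gene, 2604 bases for Cirbp and 4698 for Rbm3. Which member is higher depends on those lengths. At DRF ZT0 the libraries held 2440 to 2773 reads of Cirbp and 2309 to 2593 of Rbm3.

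**Figure D3:**
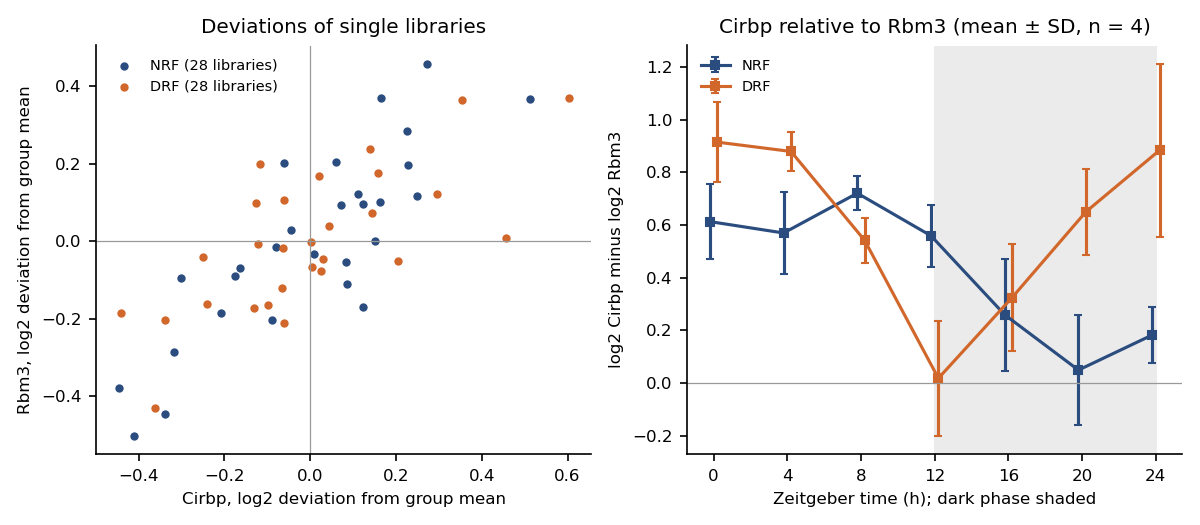
Left, deviations of Rbm3 against those of Cirbp from the group mean (log2) in 28 NRF (blue) and 28 DRF (orange) libraries, with r = 0.771 over all 56. Right, the log2 ratio of Cirbp to Rbm3 against zeitgeber time in hours, mean ± SD of 4 libraries. The DRF ratio falls from 0.92 at ZT0 to 0.02 at ZT12, and the NRF ratio from 0.72 at ZT8 to 0.05 at ZT20.

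Marker levels of some other cell types correlated with Rbm3 between libraries of a group, and less so with Cirbp. The deviations of Rbm3 had r = 0.51 with the summed level of 5 of 5 fibroblast markers, 0.39 with 5 of 5 endothelial, 0.38 with 4 of 4 atrial, 0.35 with 5 of 5 macrophage and -0.34 with 4 of 4 blood markers (56 libraries, description). For Cirbp the same values were 0.26, 0.12, 0.18, 0.05 and -0.27. The fibroblast sum ran from 496 to 820 TPM under NRF (median 638) and from 460 to 776 TPM under DRF (median 593). The atrial sum ran from 130 to 4318 TPM under NRF and from 95.3 to 5500 TPM under DRF, with medians of 611 and 1808 TPM, so the DRF median was the higher while the ranges overlapped. The blood sum ran from 1395 to 37024 TPM (median 6146) and from 1627 to 63338 TPM (median 6595), so atrium and blood were present in unequal amounts. Endothelial medians were 587 and 522 TPM and macrophage medians 332 and 270 TPM under NRF and DRF. For the other lists, of cardiomyocyte, smooth muscle, white and brown fat markers, r lay between -0.16 and 0.20 for both members. The brown fat sum was mostly Cox7a1, which heart also expresses, and Ucp1, the defining marker, was listed at 0 in 14 NRF and 6 DRF libraries and reached 79.1 TPM in a DRF library. The median-of-ratios scaling factor of a library had r = 0.61 with the deviations of Rbm3 and 0.33 with those of Cirbp, and r between the members was 0.728 with that scaling. The part of these levels in the results was not tested, and in whole hearts fewer cells of a type and less RNA per cell cannot be told apart.

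The genes whose 14 group means were most like those of Cirbp and Rbm3 were picked by Pearson's r on the log2 scale, as a description. For Cirbp the 6 highest were Epm2a (r = 0.97), the gene of the glycogen phosphatase laforin, Rad51d (0.97) of homologous recombination, Cep83os (0.97), Fam122b (0.97), Trit1 (0.97), a tRNA-modifying enzyme, and BC067074 (0.96). All 6 had fitted peaks between ZT7.93 and ZT9.42 under NRF and between ZT2.64 and ZT4.21 under DRF, with amplitudes below those of Cirbp. Epm2a, for example, had 26.8 ± 2.58 TPM at NRF ZT8, 17.8 ± 1.06 at NRF ZT20 and 27.5 ± 1.51 at DRF ZT0.

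The 3 genes most opposite to Cirbp were Ahsa2 (-0.93), Chordc1 (-0.92) and 2310002L09Rik (-0.92). Ahsa2 and Chordc1 encode partners of the HSP90 chaperone. Chordc1 stood at 20.7 ± 2.64 TPM at NRF ZT20, where Cirbp was lowest, and at 9.55 ± 1.32 TPM at DRF ZT0, where Cirbp was highest. Without the doubtful libraries the 9 values of r lay between 0.96 and 0.97 for the similar genes and between -0.93 and -0.90 for the opposite ones.

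For Rbm3 the most similar were Eny2 (0.97), a subunit of transcription and mRNA export complexes, Phactr1 (0.95), an actin regulator, Ube2e2 (0.94), a ubiquitin-conjugating enzyme, 4931406C07Rik (0.93), Thoc3 (0.93) of the mRNA export complex THO, and 2310015D24Rik (0.93). Their peaks lay between ZT7.79 and ZT10.2 under NRF and between ZT4.83 and ZT7.20 under DRF. The most opposite were Zw10 (-0.92), a kinetochore gene, Hist1h3d (-0.91), a histone H3 gene, and Slmap (-0.90), a sarcolemma-associated protein. Without the doubtful libraries r lay between 0.92 and 0.98 for the similar genes of Rbm3 and between -0.91 and -0.86 for the opposite ones. No gene was on the lists of both members.

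**Figure D4:**
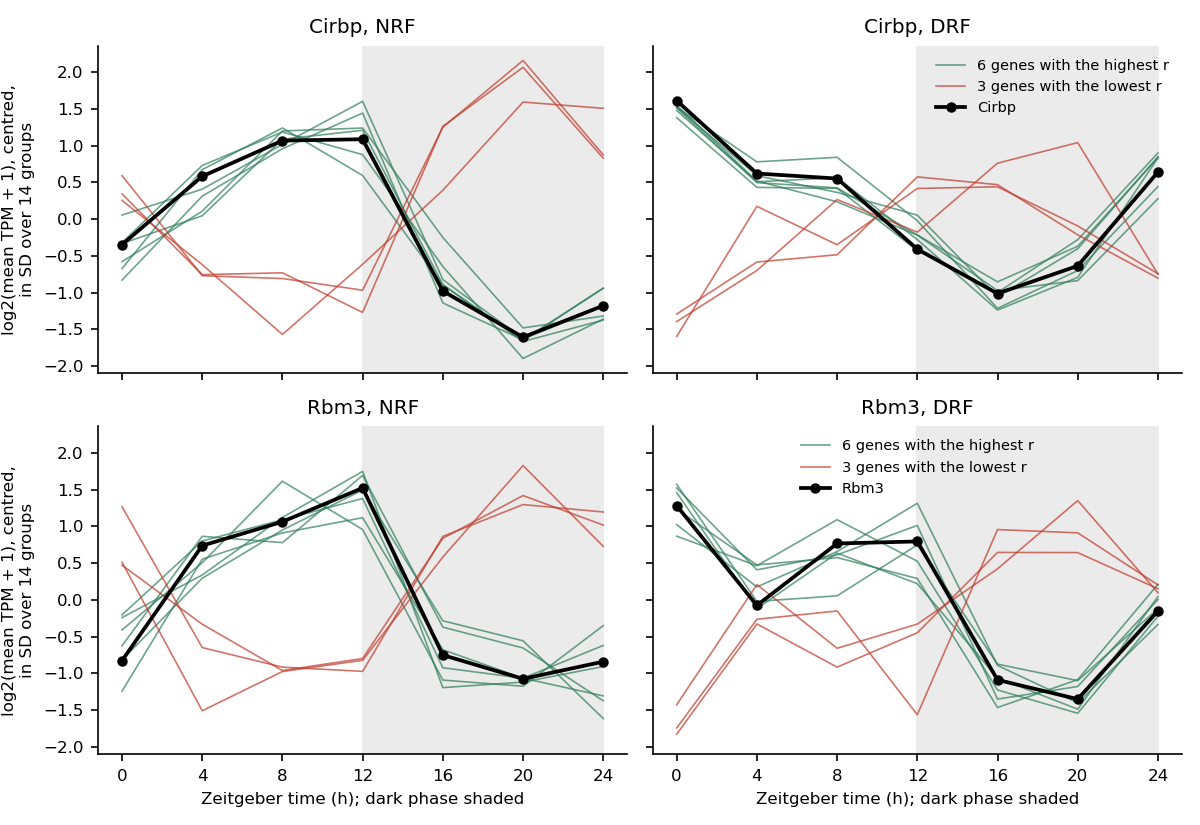
Group means of Cirbp (top) and Rbm3 (bottom), in black, with the 6 genes of highest r (green) and the 3 of lowest r (red) over 14 groups, against zeitgeber time in hours under NRF (left) and DRF (right). Values are log2(mean TPM + 1), centred and divided by the SD over the 14 groups. Black and green curves run together because r chose them, between 0.93 and 0.97.

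Genes of the heat shock response, which warming is known to induce, peaked in the dark phase under NRF. Of 20 listed chaperones and co-chaperones 19 were tested, Hsp90ab1 being left out because its reads could not be recovered. A rhythm was called in 16 of 19 under NRF (37.2% of all tested genes passed), and all 16 had fitted peaks between ZT12 and ZT24, with a mean peak at ZT19.3. Under DRF a rhythm was called in 6 of 19 with a mean peak at ZT12.3, against 32.4% of all genes. Of those 6, 3 had peaks between ZT12 and ZT24, and with median-of-ratios scaling 6 of 7 did. The share of all rhythmic genes that peaked in the dark was not counted. The rhythm differed between the regimens at matched zeitgeber time in 12 of 19 (27.6% of all genes). The smallest p-values belonged to Hsph1 (peak ZT20.4 under NRF and ZT11.3 under DRF), Stip1 (ZT20.96 and ZT11.6), Chordc1 (ZT19.7 and ZT13.0) and Cacybp (ZT21.5 and ZT11.6). The rhythm of Hsph1 under DRF was not called (limma, adjusted p = 0.0594), so its fitted peak there is a value only. The first is an HSP110 chaperone and the next 2 bind HSP90. In the 6 genes rhythmic under both regimens the median absolute shift was 8.04 h. The fitted shift of Fkbp4, a co-chaperone of HSP90 named after its values were seen, was -11.07 ± 1.55 h (SE), that of Cacybp -9.93 ± 1.48 h and that of Stip1 -9.34 ± 1.47 h, all within 2 SE of 12 h, where earlier and later cannot be told apart. The other 3 shifts were smaller, -6.74 ± 1.40 h for Chordc1, -4.96 ± 1.34 h for Hspa8 and -2.12 ± 1.32 h for Dnajb4, the last 2 being chaperone genes named after their values were seen. Without the doubtful libraries a rhythm was called in 18 of 19 under NRF and in 4 under DRF, and 15 differed.

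RNA-binding and splicing factors that have been linked to temperature had no common phase. A rhythm was called in 13 of 23 tested genes under NRF (37.2% of all tested genes) and in 7 under DRF (32.4%), and 7 differed between the regimens at matched zeitgeber time (27.6%). The last 2 counts lie near the shares over all genes. Srsf5, a serine and arginine-rich splicing factor, peaked at ZT6.47 under NRF and ZT0.45 under DRF, with an adjusted p of 0.000965 for the difference (limma). Srsf3 (ZT22.2 and ZT9.12) and Srsf10 (ZT19.4 and ZT11.9) are of the same family and peaked at night under NRF, and the rhythm of Srsf10 under DRF was not called (limma, adjusted p = 0.129). U2af1l4 was not tested, since its mean was under 1 TPM. In the fit without the doubtful libraries 9 of 23 differed.

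Of 7 tested transcripts that CIRBP or RBM3 has been reported to bind or act on, 3 had a rhythm under NRF and 3 under DRF, and in 5 it differed between the regimens at matched zeitgeber time, with the same counts without the doubtful libraries. The shares over all tested genes were 37.2%, 32.4% and 27.6%, so the counts of rhythms lie near them. Clock, the partner of BMAL1, peaked at ZT0.54 under NRF and ZT23.2 under DRF. Kcnd2, a potassium channel subunit of repolarization, had fitted peaks at ZT8.07 and ZT4.09, the second in a rhythm that was not called (limma, adjusted p = 0.0580). Rpa2, a subunit of the single-strand DNA-binding protein RPA, peaked at ZT9.70 and ZT4.46. Txn1, thioredoxin, had peaks at ZT21.8 and ZT9.57 that were not called in either regimen. Ntrk2, a neurotrophin receptor, had a mean under 1 TPM and was not tested. The clock genes, for comparison, were rhythmic in 18 of 18 under NRF (37.2% of all genes) and in 16 under DRF (32.4%), with a median absolute shift of 1.99 h in those 16. Among them Per3 moved by -2.07 ± 0.43 h, Tef by -1.91 ± 0.48 h and Nr1d2 by -1.23 ± 0.60 h (SE), against -4.87 ± 0.71 h for Cirbp. Cry2, of the smallest p-value, had no called rhythm under DRF.

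**Figure D5:**
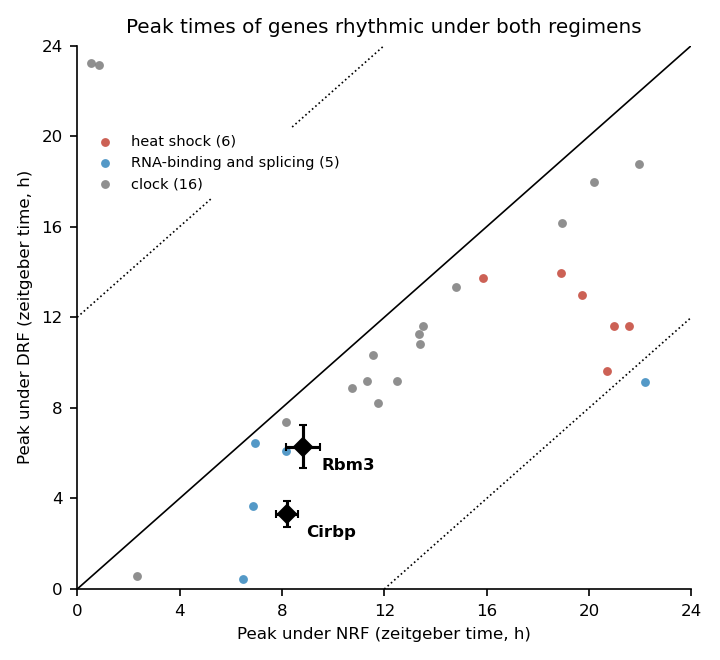
Fitted peak under DRF against fitted peak under NRF, in hours of zeitgeber time, for Cirbp and Rbm3 (black, ± SE) and for heat shock (red, 6), RNA-binding and splicing (blue, 5) and clock (grey, 16) genes rhythmic under both regimens. On the solid line the peak does not move, and on the dotted lines it moves by 12 h. Cirbp (ZT8.21 to ZT3.33) lies farther below the solid line than Rbm3 (ZT8.82 to ZT6.29).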

How the data were processed

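PolyA RNA was measured in 56 mouse heart libraries, and regimen, time and replicate were taken from the labels. The members and gene lists were chosen with earlier results of these data known. Per the labels and the processing notes of the submitters, reads were aligned with HISAT2 2.0.5 to mm10 and counted with featureCounts 1.5.0-p3. The annotation release, the use of strand and whether a count is a read or a pair are not given in the sources used here.

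The values that the authors deposited as TPM were not linear: each is a library constant times log2(1 + scaled reads), divided by exon length. The design had assumed linear TPM, so whole reads were recovered with exon lengths from GENCODE M21 (GRCm38). Of 1273913 values, 99.9996% came within 0.1 of a whole read. The annotated length served 21952 genes, a searched length 826, and 8 unresolved genes were left out. Both members had annotated lengths that gave whole reads. TPM was recomputed, and the 13891 genes that averaged 1 TPM or more were tested on log2(TPM + 1) with limma 3.58.1 in R 4.3.3 (eBayes with trend) and Benjamini-Hochberg adjustment, called at an adjusted p under 0.05. The added 1 TPM makes differences of low genes too small. Rhythms were fitted with a 24-h cosine and sine, in place of the rhythm tool of the study. Intervals of phase came from the delta method. The feeding phase was taken to start at ZT0 (DRF) and ZT12 (NRF). Scripts were tested on simulated data. The genes named were Cirbp and Rbm3, for each the 6 highest and 3 lowest correlations over 14 group means, and for each list the 4 smallest p-values of the rhythm difference at matched zeitgeber time. 1 gene that this rule names is not reported here. No molecular identifiers were used, so reads are not independent molecules. The alternatives were another pseudocount (0.1 TPM), no filter, median-of-ratios scaling, the deposited values, each replicate, library or time left out, a replicate block, the mitochondrial share as a covariate and a second harmonic. Leaving out the 2 doubtful libraries and the test of the ratio were added after seeing the data. All 56 columns of values were used.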

Additional observations from a re-analysis of the deposited data

Results flagged for a closer look

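In the library DRF ZT12 replicate 2 the level of Rbm3, 34.5 TPM, stood apart from the other 3 libraries of its group (28.9 to 29.7 TPM), a gap beyond Dixon's 95% limit for 4 samples. It was the only library to do so in 28 groups, and chance gives about 1 such group in 20. Without it the food-matched difference of DRF ZT12 from NRF ZT24 fell from 0.57 to 0.51 (log2) and was no longer called (limma, adjusted p = 0.127).

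The rhythm of Cirbp differed between DRF and NRF by the interaction test at matched zeitgeber time (limma, adjusted p = 1.28e-06). The rhythm of the ratio of Cirbp to Rbm3 also differed between the regimens (permutation p = 1e-05, the smallest that the permutations can give).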

How the results depend on the processing

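Across 873 recomputed values of 47 results on Cirbp and Rbm3, 818 kept their side of the threshold, 50 lost the call, 5 gained it and 0 of those called on either side changed sign. The cause was not tested for those that changed. For Cirbp, leaving out replicates or single libraries ended some calls at ZT12 (differences of -0.89 to -0.70), at ZT20 (0.45 to 0.59), of DRF ZT4 against NRF ZT16 (0.65 to 1.00) and of DRF ZT16 against NRF ZT4 (-1.19 to -0.64). For Rbm3 it ended some calls of the rhythm under DRF (amplitudes of 0.25 to 0.37), of the phase shift (-3.28 to -1.97 h), at ZT0 (0.63 to 0.83), and of DRF ZT8 against NRF ZT20 (0.59 to 0.78), DRF ZT12 against NRF ZT24 (0.49 to 0.62) and DRF ZT16 against NRF ZT4 (-0.84 to -0.42). The difference of Cirbp at ZT20 was 0.52 and not called without the filter on low genes or with the mitochondrial share as a covariate. The amplitude difference of Cirbp was called without ZT0 (-0.31). The rhythm of Rbm3 under DRF lost its call without ZT8 (0.32), ZT16 (0.24) or ZT20 (0.21) and with the covariate (0.27). Its shift lost its call with median-of-ratios scaling (-2.23 h) and without ZT0 (-0.83 h), ZT16 (-2.46 h), ZT20 (-2.89 h) or ZT24 (-2.69 h). Rbm3 gained a difference in rhythm at matched zeitgeber time with the deposited values (adjusted p = 0.0459), without ZT4 (0.00946), with a second harmonic (0.0479) and without the doubtful libraries (0.0335). The call of DRF ZT12 against NRF ZT24 in Rbm3 was lost without the filter (0.57).

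Replicate numbers did not pair the libraries: same-numbered libraries had correlations of -0.178 to 0.114, and 21 of 56 were closest to their own number. A replicate block changed no call of either member (Cirbp at matched zeitgeber time, adjusted p = 2.36e-06, Rbm3 0.0864).

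Counts over all genes moved more. Without the doubtful libraries 480 genes were called at ZT4 and 499 at ZT8, against 62 and 49. Median-of-ratios scaling gave 232 at ZT4, 108 at ZT8, 601 in place of 950 at ZT16 and 2161 in place of 1226 at ZT24. At matched feeding time it gave 1284, 1456, 1439 and 1177 at 0, 4, 8 and 12 h, against 849, 885, 770 and 719. With the deposited values 149 genes were called at ZT4 and 429 at ZT16, and with the mitochondrial share as a covariate 124 at ZT4, 23 at ZT8, 986 in place of 2052 at ZT20, 1116 at 12 h of feeding time and 965 in place of 3344 at 20 h. Without the filter 31 were called at ZT8. For the mean level 3596 genes were called, and 1806 with median-of-ratios scaling, 1900 with the deposited values, 609 with the covariate and 1172 to 4091 with a replicate or time left out. For ZT24 against ZT0 under DRF 58 were called, and 209, 112 and 112 in those 3 fits. Leaving out a replicate or a time gave 2804 to 5252 rhythms under NRF (5161 with all) and 2301 to 4485 under DRF (4494), and 1832 to 4141 differences at matched zeitgeber time (3829) and 3729 to 5861 at matched feeding time (5740). Leaving out a replicate or library gave 586 to 1695 genes at ZT0 (1576 with all), 16 to 661 at ZT4, 3 to 405 at ZT8, 84 to 1950 at ZT12 (1060), 112 to 1260 at ZT16, 733 to 2633 at ZT20 and 197 to 1535 at ZT24. At 0, 4, 8, 12, 16 and 20 h of feeding time it gave 364 to 985, 323 to 892, 125 to 807, 304 to 923, 1258 to 3976 (3149 with all) and 1611 to 4114 genes. For ZT24 against ZT0 it gave 2 to 66 under DRF and 0 to 14 under NRF (8 with all). With median-of-ratios scaling 11 of 23 RNA-binding and splicing genes had a rhythm under DRF, in place of 7, and 5 of 7 target transcripts had a rhythm under NRF, in place of 3. Reads limit neither member, whose lowest library held 697.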
